A study of Mus musculus with 6 samples.

Results

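The Polycomb group genes examined here encode 35 subunits of the Polycomb repressive complexes and of a deubiquitinase that acts on the same histone mark. They were followed in day 2 epiblast-like cells (EpiLCs) with and without Smad2 and Smad3. The members were given as a list of 35 gene symbols, with no threshold on measured values, and all 35 were found among 24288 symbols in the expression table. Each gene was represented by the row with the most reads of its 1 or more transcript rows (69 rows in all).

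EpiLCs are embryonic stem cells (ESCs) grown for 2 days with activin A and Fgf2, and they model the early post-implantation epiblast. The wild-type (WT) group was the CCE ESC line, on the same strain background as the knockout. The double knockout (DKO) group was 1 clone, KT15.1F6, which is homozygous for the Smad2 tm1Rob allele and carries a CRISPR nickase deletion of Smad3 exon 1. Both groups came from feeder-free male (XY) ESCs in 2i + LIF that were moved onto fibronectin in N2B27 medium with activin A, Fgf2 and 1% KSR, and each had 3 independent differentiations. Each genotype was 1 line, so differences between the lines and effects of the knockout cannot be told apart. Total RNA without ribosomal RNA was sequenced, and 57644143 to 63046034 reads per library were counted over genes.

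The labels were checked first. Smad3, one of the targeted genes, stood at 799, 846 and 873 normalized reads in the WT libraries and at 21.5, 30.5 and 18.7 in the DKO libraries. Smad2 was not lower in the DKO (4438, 4513 and 4610 against 5176, 5052 and 4958), and reads over the whole gene do not test the Smad2 allele. All 7 EpiLC markers passed the filter on low counts, with summed levels of 106517 to 110313 in WT and 103080 to 104446 in DKO. Most of this sum was Dnmt3b and Pou5f1 (means of 70390 and 21846 in WT and 65421 and 20761 in DKO), so it says little of the others. Of the 7 markers, Sox2 was higher in the DKO (log2 fold change 1.47) and Fgf5 and Pou3f1 were lower (-2.02 and -0.62). Nanog (-0.32), Otx2 (0.23), Dnmt3b (-0.11) and Pou5f1 (-0.07) moved by less.

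Polycomb repressive complex 2 (PRC2) trimethylates a lysine in the tail of histone H3 and comprises a core of Ezh1 or Ezh2, Eed, Suz12 and Rbbp4 or Rbbp7, to which accessory proteins bind. PRC1 attaches ubiquitin to histone H2A through Ring1 or Rnf2. In its canonical form it also holds Pcgf2 or Bmi1, a Cbx protein that reads the PRC2 mark and a Phc protein, and in its variant forms another Pcgf protein with Rybp or Yaf2. PR-DUB, with Bap1 and an Asxl protein, removes the ubiquitin. These complexes keep developmental regulators silent in pluripotent cells and during early differentiation.

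The comparison asked which subunits differ in transcript level when EpiLCs form without Smad2 and Smad3. Most differed little. Of the 35 members, 3 were changed, meaning a limma p adjusted over all tested rows (Benjamini-Hochberg) under 0.05 and a fold change over 1.5. These were Phf19 and Cbx8, which were higher in the DKO, and Yaf2, which was lower. The share was 8.57%, against 15.4% of all 17038 genes tested (7.34% higher and 8.03% lower). Among the 11930 genes that averaged 100 or more normalized reads, as 34 of the members do, 10.1% were changed.

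By adjusted p alone, without a fold threshold, 12 members rose and 6 fell. That is 51.4% of the members, against 53.6% of all genes tested (27.1% higher and 26.5% lower) and 61.3% of the genes that averaged 100 or more normalized reads, so the count was not above the background. The WT and DKO values did not overlap for 18 members, also 51.4%, against 59.0% of all genes. The 2 counts of 18 differ by 1 gene each, since Rnf2 passed the adjusted p with overlapping groups and Kdm2b was separated without passing it. The median log2 fold change was 0.03 over the members and 0.00 over all genes. The median absolute log2 fold change was 0.08 over the members, 0.19 over all genes and 0.14 over genes with at least 100 normalized reads.

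In all, 25 members had an absolute log2 fold change under 0.2, and a further 7 lay between 0.2 and the 1.5-fold threshold (0.58 on the log2 scale). The 17 members that did not pass the adjusted p had 95% confidence intervals between -0.32 and 0.22, so for each of them the interval excludes a 1.5-fold difference in either direction. Normalized reads are reads divided by 1 size factor per library, and fold changes are on the log2(value + 1) scale. In bulk RNA, fewer cells that express a gene and less RNA per cell cannot be told apart.

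**Figure D1:**
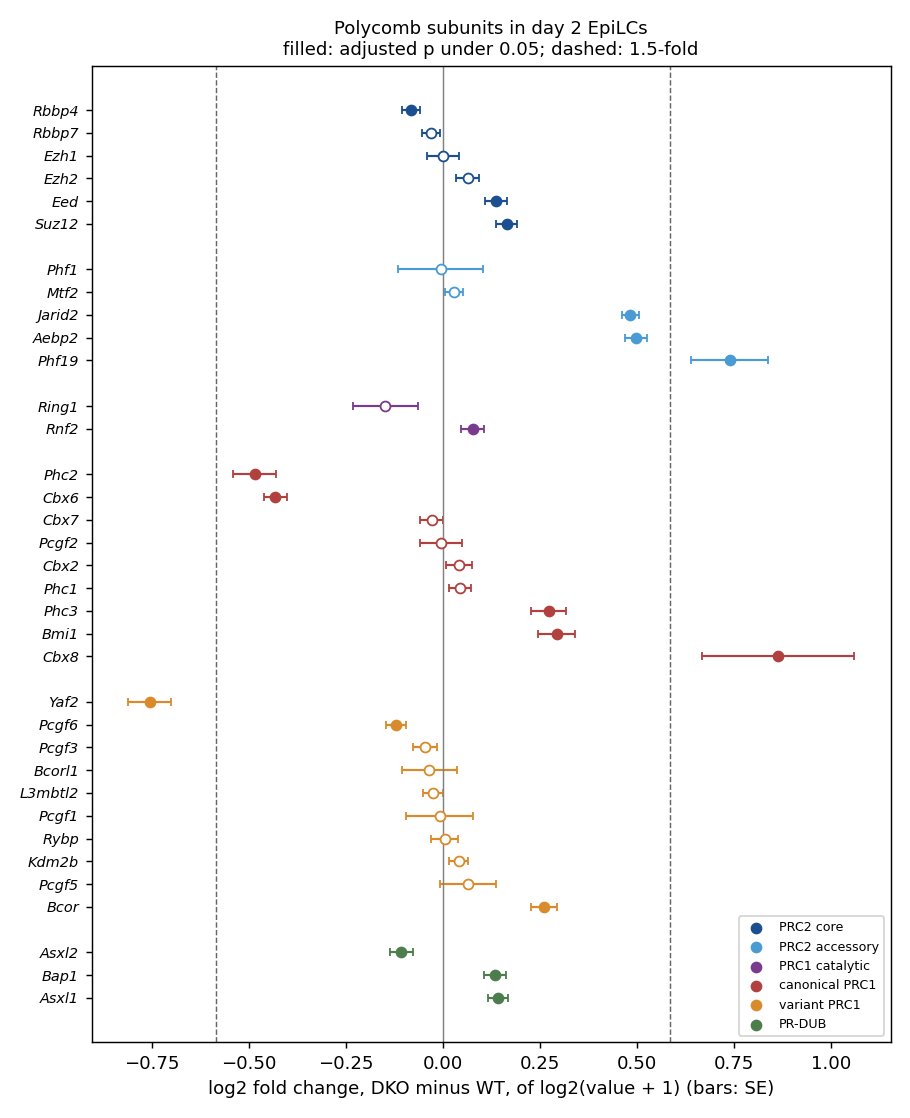
Log2 fold changes (DKO minus WT, bars are SE, n = 3 libraries per genotype) of the 35 members in 6 groups by complex, filled where the adjusted p is under 0.05, with dashed lines at 1.5-fold. Cbx8 and Phf19 lie past the right line and Yaf2 past the left line, while the PRC2 core stays between -0.08 and 0.16.

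**Figure D2:**
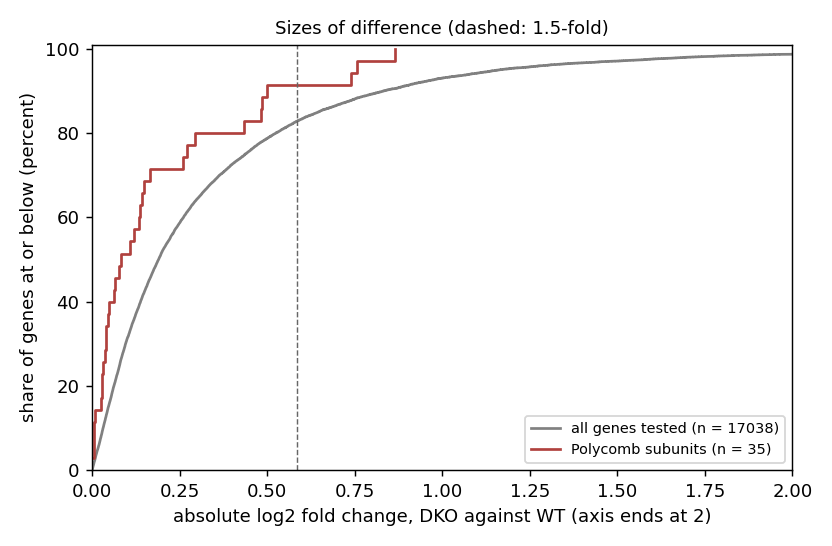
Share of genes (percent) whose absolute log2 fold change is at or below the value on the x axis, for the 35 members and all 17038 genes tested, with a dashed line at 1.5-fold and the axis ending at a log2 value of 2. The line of the members lies above that of all genes, with medians of 0.08 and 0.19.

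The PRC2 core moved little. Of its 6 genes, 2 rose and 1 fell by adjusted p (50%, against 53.6% of all genes tested), none by 1.5-fold. The median log2 fold change was 0.03. The methyltransferase genes Ezh1 and Ezh2 had log2 fold changes of 0.00 ± 0.04 (SE) and 0.06 ± 0.03, with adjusted p of 0.991 and 0.0722 by limma. Without DKO replicate 2, Ezh2 passed (adjusted p = 0.0358). Suz12 and Eed, which hold the catalytic subunit in its active form, rose from 6916 ± 196 (SD, n = 3) to 7751 ± 114 normalized reads and from 5229 ± 140 to 5745 ± 110. These are log2 fold changes of 0.16 ± 0.03 and 0.14 ± 0.03 (limma adjusted p = 6.55e-06 and 0.000157).

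Rbbp4 and Rbbp7 are closely related histone-binding proteins that also serve other chromatin complexes. Rbbp4 had 13778, 13540 and 13496 normalized reads in WT and 12921, 12936 and 12710 in DKO. It fell by 0.08 ± 0.02 on the log2 scale (limma adjusted p = 0.00369), with no overlap between the groups. Rbbp7 had 13017, 13245 and 13264 in WT and 13173, 12894 and 12626 in DKO, groups that overlap (adjusted p = 0.281).

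Phf19, Jarid2 and Aebp2 rose among the accessory subunits of PRC2. These are 3 of 5 by adjusted p (60%, against 53.6% of all genes tested), 1 of them by over 1.5-fold. The median log2 fold change of the 5 was 0.48. These proteins fall into 2 kinds, the Polycomb-like proteins Mtf2, Phf1 and Phf19, which bind CpG-rich DNA, and Jarid2 with Aebp2, which are found in another form of PRC2.

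Jarid2 (chr13:44730774-44921643, GRCm38, plus strand), a DNA-binding cofactor of PRC2, had 14646, 14727 and 14836 normalized reads in WT and 20782, 20280 and 20749 in DKO. Every DKO library lay well above every WT library, and the spread was small on both sides. The log2 fold change was 0.48 ± 0.02 (limma adjusted p = 9.54e-17), which is 1.40-fold and so under the fold threshold. Aebp2, a zinc finger protein that stimulates the enzyme, had 3479, 3362 and 3387 in WT and 4931, 4704 and 4815 in DKO. Its log2 fold change of 0.50 ± 0.03 (adjusted p = 1.86e-14), or 1.41-fold, was close to that of Jarid2. Within a library, the log2 ratio of Jarid2 to Aebp2 was 2.11 ± 0.03 (SD) in WT and 2.10 ± 0.02 in DKO, and the groups overlapped (exact permutation p = 0.6, two-sided).

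Phf19 (chr2:34893752-34914353, GRCm38, minus strand) had 113, 115 and 134 normalized reads in WT and 202, 194 and 208 in DKO. The lowest DKO library was above the highest WT library, and the log2 fold change was 0.74 ± 0.10 (limma adjusted p = 3.24e-07). Mtf2, the most highly counted member, had 18594, 19590 and 18748 in WT and 19834, 19152 and 19073 in DKO, which overlap (adjusted p = 0.335). Phf1 averaged 157 ± 17.1 in WT and 157 ± 23.0 in DKO. Of the 3 Polycomb-like genes, therefore, Phf19 alone passed the test.

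The Phf19 promoter and those of 2 other members that rose, Cbx8 and Jarid2, are shown because these genes had the largest rises in PRC2 and canonical PRC1 and the most reads among members that rose. Each is the 250 bases before the start site in RefSeq (GRCm38.p6), 5′ to 3′ on the strand of the gene, at chr2:34913977-34914226 (minus strand), chr11:119040914-119041163 (minus strand) and chr13:44730524-44730773 (plus strand). Capitals mark GGCGCC or the Smad-binding letters CAGAC on either strand (GTCTG).
Phf19: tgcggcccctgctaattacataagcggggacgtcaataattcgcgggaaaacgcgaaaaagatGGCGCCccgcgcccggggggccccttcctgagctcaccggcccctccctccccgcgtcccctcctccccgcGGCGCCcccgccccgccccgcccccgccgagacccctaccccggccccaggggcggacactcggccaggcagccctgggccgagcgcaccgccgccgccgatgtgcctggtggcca
Cbx8: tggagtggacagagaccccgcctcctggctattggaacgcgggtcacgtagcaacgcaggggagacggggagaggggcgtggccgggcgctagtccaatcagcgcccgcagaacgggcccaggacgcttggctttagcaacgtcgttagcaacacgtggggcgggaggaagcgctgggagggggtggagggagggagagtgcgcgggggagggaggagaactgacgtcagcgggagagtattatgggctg
Jarid2: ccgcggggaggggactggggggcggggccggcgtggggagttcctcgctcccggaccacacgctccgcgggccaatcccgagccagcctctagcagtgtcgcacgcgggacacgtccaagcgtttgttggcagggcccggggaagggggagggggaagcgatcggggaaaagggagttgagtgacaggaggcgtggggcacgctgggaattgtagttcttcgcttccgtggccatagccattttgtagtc
The Phf19 window precedes the start of the transcript matched to the counted row and lies inside the longer RefSeq gene span given above. It holds GGCGCC at 2 places, and neither motif is in the windows of Cbx8 and Jarid2. Over the 31 members with a promoter entry, CAGAC stood in 12 (38.7%) and GGCGCC in 5 (16.1%), and over all 15646 promoters of tested genes the shares were 41.0% and 15.7%. Both shares lie near the background. The windows of the members had a median GC content of 66.0% (45.6% to 76.4%) and a median of 20 CpG dinucleotides, against 59.2% and 14 over all promoters. No entry was used for Yaf2.

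The catalytic subunits of PRC1 differed little. Rnf2, the main ubiquitin ligase of the complex, had 4675, 4842 and 4879 normalized reads in WT and 5170, 5145 and 4865 in DKO. It passed the adjusted p (log2 fold change 0.08 ± 0.03, limma adjusted p = 0.0304) although DKO replicate 3 lay within the range of WT. The call was lost without WT replicate 1, DKO replicate 1 or DKO replicate 2 (adjusted p = 0.134, 0.128 and 0.133). Ring1, its paralog, had 284, 246 and 251 in WT and 255, 237 and 213 in DKO, groups that overlap (log2 fold change -0.15 ± 0.08, adjusted p = 0.139).

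Canonical PRC1 held 9 members, of which 3 rose and 2 fell by adjusted p and 1 was changed. These shares, 55.6% and 11.1%, stand against 53.6% and 15.4% of all genes tested. The Cbx proteins bind methylated histone H3 and differ in how they compact chromatin. Cbx8 (chr11:119036303-119040913, GRCm38, minus strand) had 30.1, 35.3 and 21.9 normalized reads in WT and 54.4, 46.2 and 58.6 in DKO. All 3 DKO libraries lay above all WT libraries, with the fewest reads of any member. The log2 fold change was 0.86 ± 0.20 (limma adjusted p = 0.000467). Cbx2, whose gene ends 5034 bases from Cbx8 on chromosome 11, had 2480, 2573 and 2639 in WT and 2553, 2668 and 2692 in DKO (0.04 ± 0.03 on the log2 scale, adjusted p = 0.311).

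Cbx6 fell, from 4820, 4673 and 4827 normalized reads in WT to 3408, 3568 and 3639 in DKO. The groups were far apart, and the log2 fold change was -0.43 ± 0.03 (limma adjusted p = 8.65e-13), or 0.741-fold. The whole of the Cbx6 gene body (100%) lies within Npcd on the same strand, so reads counted for Cbx6 were not separated from those of Npcd. The Npcd count, on average 5258 in WT and 3994 in DKO, covers the same stretch and is not a separate measure. Which gene the reads came from was not tested. Cbx7, the Cbx protein best known from naive ESCs, had 5404, 5251 and 5449 in WT and 5021, 5410 and 5359 in DKO, which overlap (adjusted p = 0.424).

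The Phc proteins polymerize and bring PRC1 complexes together, and the 3 genes took 3 courses. Phc1 had 12922, 12641 and 13111 normalized reads in WT and 12762, 13136 and 14018 in DKO (log2 fold change 0.04 ± 0.03, limma adjusted p = 0.180), and passed without DKO replicate 1 (adjusted p = 0.0332). Phc2 fell from 654, 716 and 675 to 490, 503 and 467, which is -0.49 ± 0.06 on the log2 scale (adjusted p = 1.84e-08). Phc3 rose from 934, 849 and 904 to 1052, 1077 and 1114, which is 0.27 ± 0.05 (adjusted p = 1.08e-05). Phc2 and Phc3 each had no overlap between the groups, in opposite directions.

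Pcgf2 and Bmi1 are the alternative Pcgf subunits of canonical PRC1. Pcgf2 had 945, 841 and 858 normalized reads in WT and 809, 937 and 889 in DKO, with overlapping groups (adjusted p = 0.945 by limma). Bmi1 had 924, 1039 and 994 in WT and 1268, 1211 and 1143 in DKO. It was higher in every DKO library, by 0.29 ± 0.05 on the log2 scale (limma adjusted p = 6.65e-06).

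**Figure D3:**
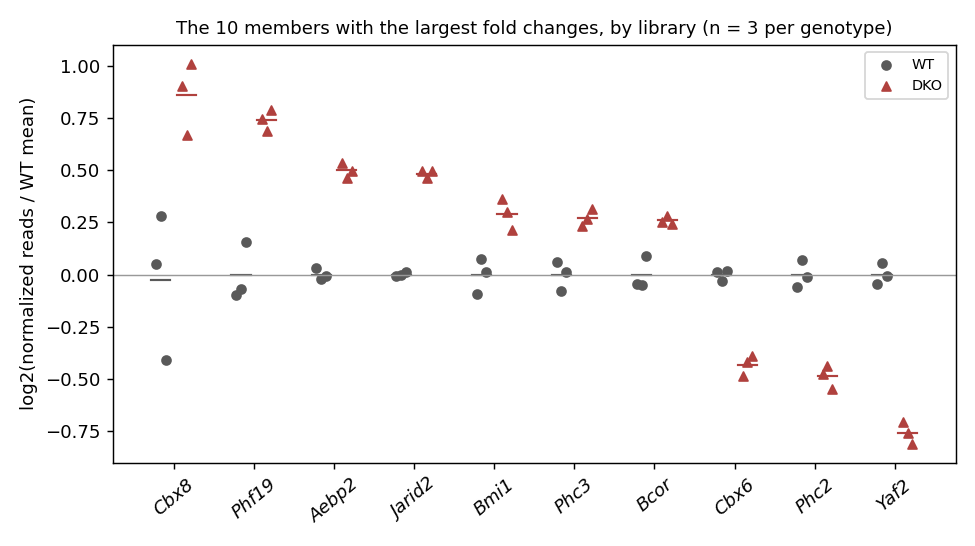
Normalized reads of the 10 members with the largest absolute log2 fold changes in each library, as log2 of the value over the WT mean (circles WT, triangles DKO, n = 3 each, lines are means of the log2 values). The WT and DKO points of all 10 genes are separate, and Cbx8 has the widest spread between replicates.

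Variant PRC1 held 10 members, of which 1 rose and 2 fell by adjusted p (30%, against 53.6% of all genes tested), 1 of them by over 1.5-fold. The median log2 fold change was -0.02. Yaf2 and Rybp are alternative subunits that bind Rnf2 and the ubiquitin mark. Yaf2 (chr15:93283833-93336935, GRCm38, minus strand) fell from 674, 722 and 693 normalized reads in WT to 426, 412 and 397 in DKO. The highest DKO library was far under the lowest WT library, and the log2 fold change was -0.76 ± 0.06 (limma adjusted p = 3.06e-12). Rybp had 3099, 3024 and 2828 in WT and 3080, 3022 and 2871 in DKO, and the difference was 0.00 ± 0.04 on the log2 scale (adjusted p = 0.932). An annotated pseudogene of unknown strand, Gm52193, covers 6.89% of the Yaf2 gene body, and its part in the count was not tested. Other genes of unknown strand cover 22.3% of Bcor and 7.05% to 9.94% of Asxl2, Kdm2b, Phc2 and Cbx2. Their part was not tested either.

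Bcor and Bcorl1 encode alternative corepressors of the variant complex with Pcgf1 and Kdm2b. Bcor had 3156, 3144 and 3466 normalized reads in WT and 3875, 3957 and 3854 in DKO, all DKO values above all WT values (log2 fold change 0.26 ± 0.03, limma adjusted p = 1.87e-07). A short noncoding row of Bcor carried few reads and went the other way, with 66.0 on average in WT and 46.4 in DKO (-0.50 ± 0.16, adjusted p = 0.00889). Bcorl1 had 518, 449 and 509 in WT and 448, 450 and 546 in DKO, which overlap (adjusted p = 0.693).

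Kdm2b, which recruits that complex to unmethylated CpG islands, has 2 nested rows. The long row averaged 7131 ± 34.5 in WT and 7332 ± 117 in DKO and did not pass the test (log2 fold change 0.04 ± 0.03, limma adjusted p = 0.183). The short row, which starts within the gene, averaged 3616 ± 73.4 and 3909 ± 98.1 and did pass (0.11 ± 0.03, adjusted p = 0.00221). Reads of the long row alone, which lie in the part before the short row, averaged 3516 ± 52.5 in WT and 3423 ± 89.0 in DKO. Their share of the gene was 50.3%, 48.9% and 48.7% in WT and 47.5%, 45.6% and 47.0% in DKO. All 3 DKO shares were under the WT shares, but 3 against 3 libraries cannot give less than the p found here (exact permutation p = 0.1, two-sided). Introns are counted in both parts.

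The other variant subunits stayed near their WT levels. Pcgf6, which defines a variant complex that silences germline genes, went down from 7163 ± 109 to 6587 ± 28.9 normalized reads (-0.12 ± 0.03 on the log2 scale, limma adjusted p = 0.000199). Pcgf1, Pcgf3, Pcgf5 and L3mbtl2 did not pass the test, with log2 fold changes of -0.01, -0.05, 0.06 and -0.03.

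All 3 PR-DUB genes passed the adjusted p with separate groups, each by little. Over all genes tested, 53.6% passed and 59.0% were separate, and nothing is read from a count of 3 genes. The deubiquitinase gene Bap1 rose from 4579 ± 132 to 5023 ± 65.2 normalized reads (log2 fold change 0.13 ± 0.03, limma adjusted p = 0.000228). Asxl1, an activator of Bap1, had 11824, 11951 and 12020 in WT and 12680, 13074 and 13751 in DKO (0.14 ± 0.03, adjusted p = 4.67e-05). Its paralog Asxl2 had 4788, 4731 and 4512 in WT and 4352, 4298 and 4373 in DKO (-0.11 ± 0.03, adjusted p = 0.0025). The 2 Asxl genes thus moved in opposite directions.

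Where 2 members can take the same or a related place in a complex, the log2 ratio of their normalized reads was taken within each library, which needs no gene length when genotypes are compared. The WT and DKO ratios did not overlap for 12 of 17 pairs, and for 12 to 14 with any 1 library left out. No share over all genes goes with pairs, so nothing is read from this count. With 3 libraries a group the exact permutation test cannot go below 0.1, and the smallest p adjusted over the 17 pairs was 0.142, so no pair could pass. The ratios restate the differences of single members given above.

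After Cbx8 to Cbx7, the largest shift of the 17 pairs was in Rybp to Yaf2. The log2 ratio was 2.20, 2.06 and 2.03 in WT and 2.85, 2.87 and 2.85 in DKO. Phc1 to Phc2 went from 4.24 ± 0.09 (SD, n = 3) to 4.77 ± 0.12, and Phc1 to Phc3 moved the other way, from 3.85 ± 0.05 to 3.62 ± 0.03. Mtf2 to Phf19 went from 7.29 ± 0.15 to 6.58 ± 0.06.

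Among the Cbx genes, Cbx6 to Cbx7 went from -0.17 ± 0.01 to -0.57 ± 0.02 and Cbx8 to Cbx7 from -7.51 ± 0.36 to -6.61 ± 0.20. Pcgf2 to Bmi1 went from -0.16 ± 0.17 to -0.46 ± 0.16 and Asxl1 to Asxl2 from 1.35 ± 0.06 to 1.60 ± 0.06. The other separated pairs were Bcor/Bcorl1, Rnf2/Ring1, Cbx2/Cbx7 and Rbbp4/Rbbp7, and the overlapping ones included Ezh2/Ezh1, at 1.58 ± 0.04 in WT and 1.65 ± 0.09 in DKO.

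**Figure D4:**
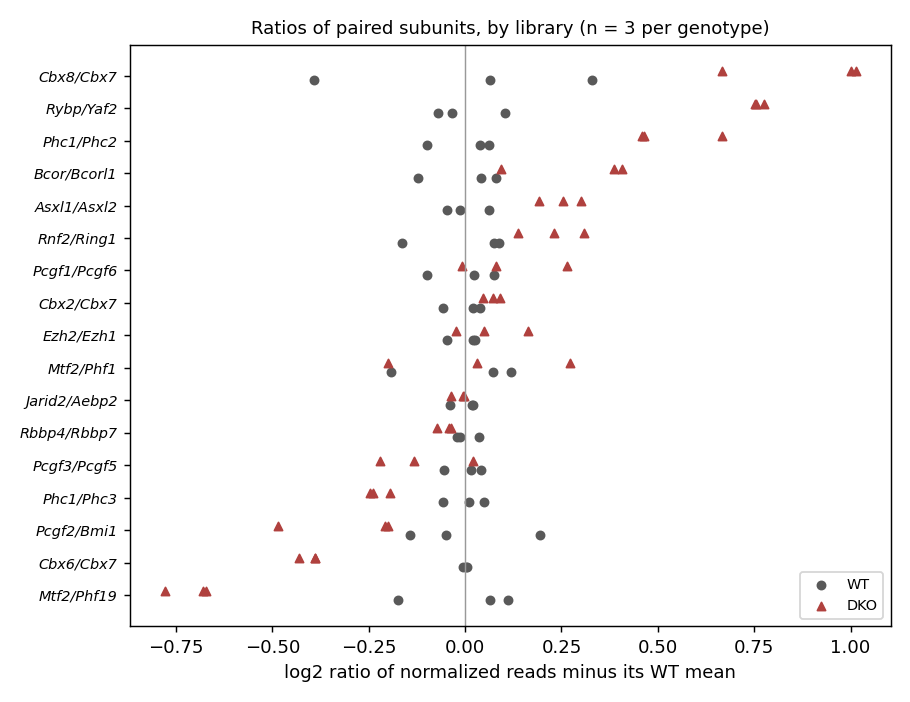
Log2 ratios of normalized reads of 17 pairs of members in each library, minus the WT mean of the pair (circles WT, triangles DKO, n = 3 each). Rybp/Yaf2 and Cbx8/Cbx7 are shifted upwards and Mtf2/Phf19 and Cbx6/Cbx7 downwards in all 3 DKO libraries, while Jarid2/Aebp2 and Ezh2/Ezh1 overlap.

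Levels of different genes were compared only per length. Since introns were counted, the reads were scaled both per kilobase of gene body and per kilobase of exon, and an order is given where both scales gave the same one. In WT, Rbbp7 was the highest member on both scales (705 normalized reads per kb of gene body and 5871 per kb of exon). Cbx8 was the lowest per kb of exon (8.12), and Pcgf5 per kb of gene body (4.46).

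Within families, by the transcript lengths matched to the counted rows, the order was the same on both scales in WT and in DKO for 8 of 10 families. Ezh2 stood above Ezh1 (56.5 and 34.6 per kb of gene body in WT), Rnf2 above Ring1 (152 and 66.9), and Mtf2 above Phf1 and Phf19 (439, 35.5 and 5.97). Phc1 was far above Phc3 and Phc2 (668, 14.4 and 6.94), Rybp above Yaf2 (50.6 and 13.3), Bcor above Bcorl1 (26.3 and 7.38) and Asxl1 above Asxl2 (205 and 61.9). All rows of Phc3 had the same reads but matched transcripts with 2893 to 10976 bases of exon. The order of Phc3 and Phc2 per kb of exon therefore depends on which length is taken. In the Pcgf family, Pcgf6 was highest and Pcgf5 lowest on both scales, with the order between them depending on the scale. In the Cbx family, Cbx8 was lowest in both genotypes. Cbx6 was above Cbx2 on both scales in WT (822 and 674 per kb of exon) but below it per kb of exon in DKO (609 and 693).

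**Figure D5:**
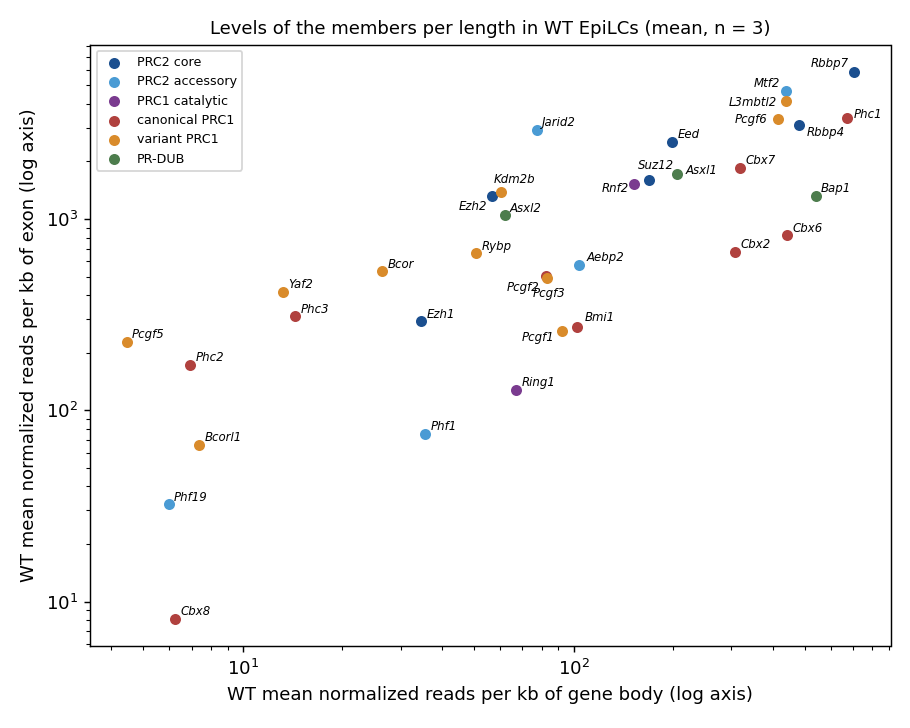
Mean normalized reads of the 35 members in WT (n = 3) per kb of gene body (x axis, log scale) and per kb of exon (y axis, log scale), coloured by complex. Rbbp7 is at the upper right, and Cbx8 and Phf19 are at the lower left.

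Further genes around the complexes were read from lists. Over all genes tested, 53.6% passed the adjusted p and 15.4% were changed, and the counts of the next 2 lists are read only beside these shares. Of 27 other Polycomb partners tested, 9 rose and 7 fell by adjusted p and 1 was changed, with a median log2 fold change of 0.04. That gene was Scml2, which encodes a relative of a fly Polycomb protein and had 250, 270 and 282 normalized reads in WT and 694, 752 and 712 in DKO (log2 fold change 1.42 ± 0.06, limma adjusted p = 3.09e-17). Of 18 genes for enzymes that oppose Polycomb or for subunits of their complexes, 5 rose and 4 fell by adjusted p and 1 was changed (median 0.04). Kdm6b, a demethylase of the PRC2 mark, had 450, 393 and 398 in WT and 239, 252 and 334 in DKO. The groups were separate, and the log2 fold change of -0.60 ± 0.09 (adjusted p = 2.36e-06) was barely past 1.5-fold. Without WT replicate 1, DKO replicate 1 or DKO replicate 2 it was not called, and the list then held 0 changed genes.

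Genes known to be silenced by Polycomb in ESCs were listed too. Of 32, 22 had enough reads to be tested, and 11 of these were changed upwards and 5 downwards, with a median log2 fold change of 0.60. Over all genes tested, 7.34% were changed upwards and 8.03% downwards, with a median of 0.00. DESeq2 gave 12 upwards and 3 downwards. The share is not that of all the listed genes, since a gene with few reads in one genotype could pass the filter through its level in the other. The list was also chosen with earlier results of these data known, and the background is not matched for level. Nothing is therefore read from these counts about Polycomb targets as a class. The transcription factor gene Gata3 had 2.69, 2.28 and 4.80 normalized reads in WT and 107, 113 and 128 in DKO (log2 fold change 4.82 ± 0.25, limma adjusted p = 1.9e-15). Gata2 had 5.91, 4.55 and 4.80 in WT and 87.2, 55.7 and 39.4 in DKO (3.28 ± 0.28), and Msx2 rose by 2.14 ± 0.27. Hoxd11, T and Sox1 fell, with log2 fold changes of -3.02, -1.55 and -1.41. Hoxd11 had only 9.13, 15.9 and 18.1 normalized reads in WT and 0, 0 and 5.18 in DKO. With values of 0, the size of its fold change rests on the 1 added before the log.

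Markers of other cell types were read beside these counts. Over all genes tested, 15.4% were changed (7.34% higher and 8.03% lower), and nothing is read from counts of so few markers. The summed level of 8 trophoblast markers was 1556 to 1636 in WT and 2977 to 3347 in DKO. Most of it came from the keratin genes Krt18 (means of 1158 in WT and 1570 in DKO) and Krt8 (262 and 818). Krt18 was not changed (log2 fold change 0.44). Of the 7 markers tested, 6 were changed and all of those were higher. Gata3, Cdx2 and Hand1 are on this list and on that of the Polycomb targets. Gata3 and Hand1 had at most 4.80 and 7.47 normalized reads in WT and could pass the filter through their DKO level. Elf5, a defining trophoblast gene, was at 2.15, 0 and 0 in WT and 0, 0 and 3.11 in DKO. The summed level of 9 fibroblast markers was 1625 to 1699 in WT and 525 to 572 in DKO. Most of this sum was Dcn, which averaged 1330 in WT and 300 in DKO. Of the 6 tested, only 2 were changed, Dcn and Col1a2, and both were lower in the DKO. Postn, which marks fibroblasts, had 0 in all WT libraries and at most 1.05 in DKO. The 8 extra-embryonic endoderm markers summed to 293 to 326 in WT and 316 to 341 in DKO. Of the 7 tested, 2 were changed and both were higher. A further 1 was lower by adjusted p alone, and the median log2 fold change of the 7 was -0.29. The part of such cells in the differences between the Polycomb subunits was not tested.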

How the data were processed

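RNA sequencing of day 2 EpiLCs gave 3 WT and 3 DKO libraries. As its methods state, ribosomal reads were filtered out with Bowtie2, and the authors aligned the remainder to mm10 with STAR, removed duplicates with SAMtools and counted reads over refGene gene bodies (versions and use of strand not given in the sources used here). The authors deposited a signal, reads divided by 1 size factor per library. The reads were recovered by undoing this and were whole for 100% of values (tolerance 0.01). Of 33812 rows, 138 without a symbol (0.517% of reads) were left out, and 0 columns of per-sample values were left unused. The authors' comparison table from DESeq2 (fold changes, p-values) was not used. Gene bodies include introns: 95.0% of row groups with the same ends but other exons have identical reads. Strand appears to be used, since Sync, which overlaps Rbbp4 by 2284 bases on the other strand, averaged 53.4 normalized reads in WT.

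The test was that of limma 3.58.1 in R 4.3.3, two-sided and with a variance trend, applied to log2(value + 1) over 25361 rows that passed filterByExpr of edgeR 4.0.16, with Benjamini-Hochberg adjustment over all of them. Background shares were read over 1 row per gene (17038 genes), the row with the most reads. Tests on the recovered reads with edgeR and DESeq2 1.42.0 were alternatives. Positions came from GENCODE vM21 and RefSeq for GRCm38, which is mm10.

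The members and all gene lists were chosen with earlier results of these data known. Values per library are given for members that were changed, for the 10 with the largest absolute log2 fold changes and for pairs of members without overlap. Of the other lists, changed genes may be named, at most 3 in each direction. Same-numbered WT and DKO libraries did not deviate together (correlations 0.0088, -0.029 and 0.036 over 11930 genes), so no pairing was used in the main test. The labels do not say whether same-numbered differentiations were run together, and these correlations cannot show it. Replicates differed by more than sampling noise (variance 3.44 to 5.64 times the sampling variance), so no library was counted as a duplicate. The median coefficient of variation over libraries was 3.16% in WT and 3.07% in DKO. Reads carried no molecular identifiers, so the removal of duplicates could not tell copies of a molecule from separate molecules with the same ends.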

Additional observations from a re-analysis of the deposited data

How the results depend on the processing

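The 3 changed members stayed 3 under edgeR, DESeq2, limma-voom, TMM scaling, pseudocounts of 0.1 and 10, no filter, 1 row per gene, the row with the lowest total and every set of 5 libraries (3 to 3). Testing against 1.5-fold directly with treat left 1, Yaf2, as Phf19 and Cbx8 then had adjusted p of 0.645 and 0.784. A lower fold threshold, 0.32 on the log2 scale, gave 7 (4 higher and 3 lower). With a mean of at least 100 required, 2 were called, since Cbx8 was no longer tested. With a replicate block, 3 were changed and 18 passed the adjusted p, as without it. The changed genes among opposing enzymes and their subunits ranged from 0 to 1 when a library was left out. Of the members, 7 that were not past the adjusted p changed sign under some settings. Ezh1 and Rybp came out at -0.0049 and -0.0025 in edgeR, -0.0027 and -0.00013 in DESeq2, -0.0054 and -0.0019 in limma-voom and -0.0052 and -0.0019 with TMM in limma. When a library was left out, Ezh1 ranged from -0.020 to 0.032, Rybp from -0.034 to 0.033, Pcgf2 from -0.053 to 0.053, Pcgf1 from -0.088 to 0.053, Phf1 from -0.11 to 0.096, Bcorl1 from -0.13 to 0.013 and Cbx7 from -0.049 to 0.0046. With the lowest-total row, Bcor was -0.50 and the log2 ratio of Bcor to Bcorl1 differed by -0.46, as that row is the short noncoding one. Depth limits Cbx8 most, at 21.9 to 58.6 normalized reads.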
